A study of Homo sapiens with 8 samples.

Results

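Erased strong H3K27me3 regions were stretches of the genome that carried dense H3K27me3 in wild-type HAP1 cells and a low level in cells without RING1A and RING1B. They were chosen on density, the mean normalized count of the 2 replicate libraries divided by the width in kb. A region on chromosomes 1 to 22 was taken when its H3K27me3 density was at least 8 in wild type and below 2 in the knockout. The choice gave 1030 of the 34703 regions in the table, which were 3.10% of the 33178 autosomal regions and 26.0% of the 3969 autosomal regions that reached 8 in wild type. Because the H3K27me3 values of both genotypes made the choice, those values are described below without a test.

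H3K27me3, trimethylation of a lysine on histone H3, is deposited by Polycomb repressive complex 2 and marks silenced genes, many of them developmental regulators. H2AK119ub, ubiquitin on a lysine of histone H2A, is added by Polycomb repressive complex 1, whose catalytic subunit is RING1A or RING1B. The complexes recruit each other: subunits that travel with the methyltransferase can bind H2AK119ub, and CBX subunits of canonical Polycomb repressive complex 1 bind H3K27me3. The comparison asks what happens to the methylation mark in cells that lack the ubiquitin ligases.

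Chromatin immunoprecipitation and sequencing was done on HAP1, a near-haploid line derived from the chronic myelogenous leukaemia line KBM-7. The 4 groups of 2 libraries each were H2AK119ub in wild-type control cells, H2AK119ub in RING1A/B-DKO cells, and H3K27me3 in the same genotypes. The knockout was made by CRISPR editing of the RING1B gene in a HAP1 line already without RING1A, followed by sorting of single cells, and screening for loss of RING1B protein by immunoblot. The number of knockout clones behind the libraries was not stated, and the replicate spread may not cover differences between clones. The labels name one H3K27me3 antibody and the written protocol names another. Fly chromatin as an external reference is described for a different line, and its use in HAP1 was not stated. All values below are the authors' normalized counts, made by a method not given in the sources used, and the sequencing depth is unknown. Summed over all regions, the libraries held 1575661 and 1866278 normalized counts for wild-type H2AK119ub and 17159 and 20938 for knockout H2AK119ub. The sums were 2393140 and 2456126 for wild-type H3K27me3 and 3788824 and 3224813 for knockout H3K27me3, so knockout library 1 lay above library 2. Positions are on hg19, counted from 1. The files carry no gene names, and no hg19 gene annotation or genome was used here, so regions are given by position, without gene names and without sequence.

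As a group, the erased regions went from 4.37% and 4.30% of the H3K27me3 count of the wild-type libraries to 0.379% and 0.341% of that of the knockout libraries. Their summed H3K27me3 was 104623 and 105636 normalized counts in wild type against 14368 and 10982 in the knockout, so 12.1% of the wild-type sum was left (10.4% to 13.7% over the 4 pairs of libraries). By the same measure the knockout held 144% of wild type over all autosomal regions (131% to 157%). Over the single regions, the share left had a median of 11.1%, with a 10th percentile of 4.05% and a 90th of 19.6% and a highest value of 24.5%. Both knockout libraries were listed at 0 in 31 regions. The lower of the wild-type values exceeded the higher of the knockout values in 1025 of 1030 regions, against 29.9% of autosomal regions with both knockout values below both wild-type values, and this follows from the choice. The median density was 9.23 and 9.17 per kb in wild type against 1.15 and 0.848 in the knockout. Knockout library 1 was higher than library 2 in 627 regions and lower in 249, the same order as in the library totals.

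**Figure D1:**
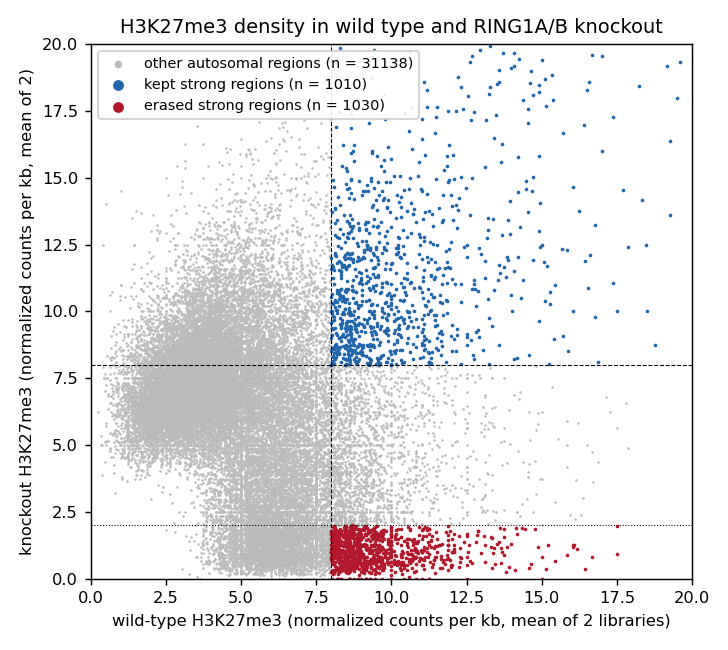
Each point is an autosomal region, with the wild-type H3K27me3 density on the horizontal axis and the knockout density on the vertical axis, both in normalized counts per kb (mean of 2 libraries). The 1030 erased regions fill the lower right box, below 2 and from 8 upward, the 1010 kept regions lie at 8 or more on both axes, and 58 regions with a value above 20 are not drawn.

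The limits cut through a continuous spread of values. Just inside the wild-type limit, the regions chr12:15990201-15992200 and chr18:26600001-26601000 both had a wild-type density of 8.0, and just outside it chr2:163331601-163344800 and chr5:153952401-153970800 both had 7.99. On the knockout side, chr10:1769001-1783800 and chr15:66222201-66582600 lay inside the limit at 1.99, while chr10:22762801-22765800 and chr21:38398401-38399400 lay outside at 2.0. A single library often fell on the other side of a limit. All 4 H3K27me3 libraries stood within their limits by themselves in 481 of the 1030 regions (46.7%). Many regions also rest on low counts, and 342 of the 1030 (33.2%) had a wild-type mean under 20 normalized counts. Between the wild-type libraries, Spearman's rho of the H3K27me3 densities was -0.186 over the 1030 regions, which were chosen on the mean of both, and 0.513 over the 430 of 5 kb or more. The number of erased regions moved with the scaling of the H3K27me3 values, from 1030 as deposited to 2518 after TMM (trimmed mean of M-values) factors and 2708 after scaling to equal totals.

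A choice made on 1 pair of libraries could be read in the pair it did not use. Replicate 1 alone chose 1175 regions, of which 481 (40.9%) also met both limits in replicate 2, where 4.35% of all autosomal regions did. Replicate 2 alone chose 1442 regions, and the same 481 (33.4%) met both limits in replicate 1, where 3.54% of autosomal regions did. In the unused pair the knockout value was below the wild-type value in 1151 of the 1175 (98.0%) and in 1386 of the 1442 (96.1%), against 40.5% and 35.1% of autosomal regions. Among regions of at least 10 kb these shares were higher. There, 212 of 265 chosen on replicate 1 (80%) met both limits in replicate 2, against 2.83% of autosomal regions of that width, and 212 of 325 chosen on replicate 2 (65.2%) met them in replicate 1, against 2.31%. The knockout was the lower value of the unused pair in 265 of 265 and 325 of 325, against 29.8% and 24.5% of autosomal regions of that width. The median wild-type density dropped from 9.23 in the choosing libraries to 7.50 in the others over all widths, but only from 9.22 to 9.14 at 10 kb or more. The autosomal baseline is not limited to regions that are strong in wild type, which are lower in the knockout more often. Among strong regions outside the erased set, both knockout values lay below both wild-type values in 60.4%. With 1 library per genotype left, the shares in the unused pair carry no test.

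Erased regions were mostly narrow, but wide domains held most of their length. Their median width was 3.8 kb. The 10th percentile was 1.2 kb, the 90th was 25.6 kb, and 10.5 Mb were covered in all. Of the 1030, 298 were under 2 kb, 302 from 2 to under 5 kb, 287 from 5 to under 20 kb and 143 of 20 kb or more. The 143 widest made up 58.5% of the covered length and 60.6% of the wild-type H3K27me3 of the group. The median wild-type density ran from 9.0 to 9.47 per kb over the width classes and both libraries, and the median knockout density from 0.833 to 1.36, ranges that the limits largely fix. The knockout density was highest in the class of 20 kb or more, with medians of 1.36 and 1.0.

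Among strong regions, the share that was erased was lower in wider regions. It was 34.5% of the 864 strong regions under 2 kb, 28.3% of the 1066 from 2 to under 5 kb, 21.8% of the 1317 from 5 to under 20 kb and 19.8% of the 722 of 20 kb or more. For comparison, kept strong regions were defined as those with a density of at least 8 in both genotypes (1010 regions). The kept share went the other way, at 8.91%, 12.2%, 35.8% and 45.8%. Kept regions had a median width of 11.6 kb, all strong regions but the erased ones 5.8 kb and all autosomal regions 6 kb. When each of the 4 H3K27me3 libraries had to meet its limit, the median width of the erased regions was 7.8 kb instead of 3.8 kb. Without 1 of the H3K27me3 libraries it was 3 to 3.6 kb. The median width thus depended on how the limits were applied to the libraries. Widths of the comparison sets were not taken under these settings. Width is the divisor of the density that made the choice, so the differences in width were not tested.

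**Figure D2:**
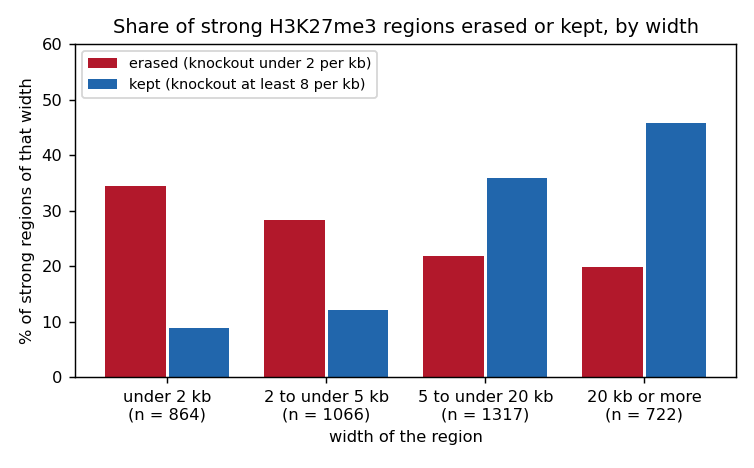
Bars give the percentage of autosomal strong regions (wild-type H3K27me3 at least 8 per kb) in 4 width classes that were erased or kept, with the number of strong regions under each class. The erased share goes from 34.5% in the narrowest class to 19.8% in the widest, while the kept share goes from 8.91% to 45.8%.

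The densest erased region in H3K27me3 was on chromosome 15. There, chr15:66222201-66582600 (360.4 kb) held 6214 and 6404 normalized counts of H3K27me3 in wild type against 829 and 604 in the knockout. That is 17.5 per kb against 1.99, with 11.4% left. Its H2AK119ub was 5120 and 5578 in wild type against 39 and 49 in the knockout, a log2 change of -6.90 ± 0.15 (SE, n = 2 per genotype, adjusted p = 0.000207, limma). The other long domain, chr17:46240401-46609600 (369.2 kb), was the widest. It had 4033 and 4030 of H3K27me3 in wild type against 800 and 640 in the knockout, which leaves 17.9%. Its H2AK119ub fell from 1996 and 2568 to 8 and 22 (log2 change -7.30 ± 0.57, SE, adjusted p = 0.00145, limma). In both domains the 4 wild-type libraries were far above the 4 knockout libraries, and the mean knockout H3K27me3 density stood close to the limit of 2. Knockout library 1 was above that limit in both. The densities in libraries 1 and 2 were 2.30 and 1.68 per kb on chromosome 15 and 2.17 and 1.73 on chromosome 17. A segment of chromosome 15 is duplicated in HAP1, and no correction of the counts for DNA copy number is stated. Its part in the density of the chromosome 15 domain was not tested.

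Among domains of 112 to 137 kb the share of H3K27me3 left ran from 7.25% to 17.4%. The region chr14:61932601-62044600 (112 kb) had 1306 and 1301 of H3K27me3 in wild type against 99 and 90 in the knockout, 7.25% of wild type. By contrast, chr8:102563601-102683200 (119.6 kb) had 1042 and 1074 in wild type against 200 and 168 in the knockout, 17.4% of wild type. Between them lay chr1:93363601-93500600 (137 kb), with 1344 and 1343 against 168 and 127, and chr2:177319601-177434600 (115 kb), with 1223 and 1239 against 192 and 126. Wild-type libraries of these regions differed little from each other, and the knockout libraries differed more. H2AK119ub fell in all of them (adjusted p from 0.000207 to 0.00188, limma), and the chromosome 14 domain had the most in wild type, 11.1 per kb against 6.01 to 6.84.

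Shorter regions reached the same wild-type density. The region chr5:153843401-153901000 (57.6 kb) held 904 and 958 normalized counts of H3K27me3 in wild type against 71 and 57 in the knockout. The region chr1:111905401-111936200 (30.8 kb) held 502 and 487 against 45 and 33. On chromosome 11, chr11:20177001-20187400 (10.4 kb) held 181 and 183 against 9 and 10, a wild-type density of 17.5 per kb and 5.22% left. These 3 differ in H2AK119ub: its wild-type density was 11.5, 7.58 and 6.73 per kb, at an H3K27me3 density between 16.1 and 17.5. A pair of very short regions also ranked among the densest, chr7:157668801-157669400 (0.6 kb; 8 and 12 against 1 and 0) and chr11:86648801-86650200 (1.4 kb; 23 and 23 against 1 and 0), where a density rests on few counts.

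**Figure D3:**
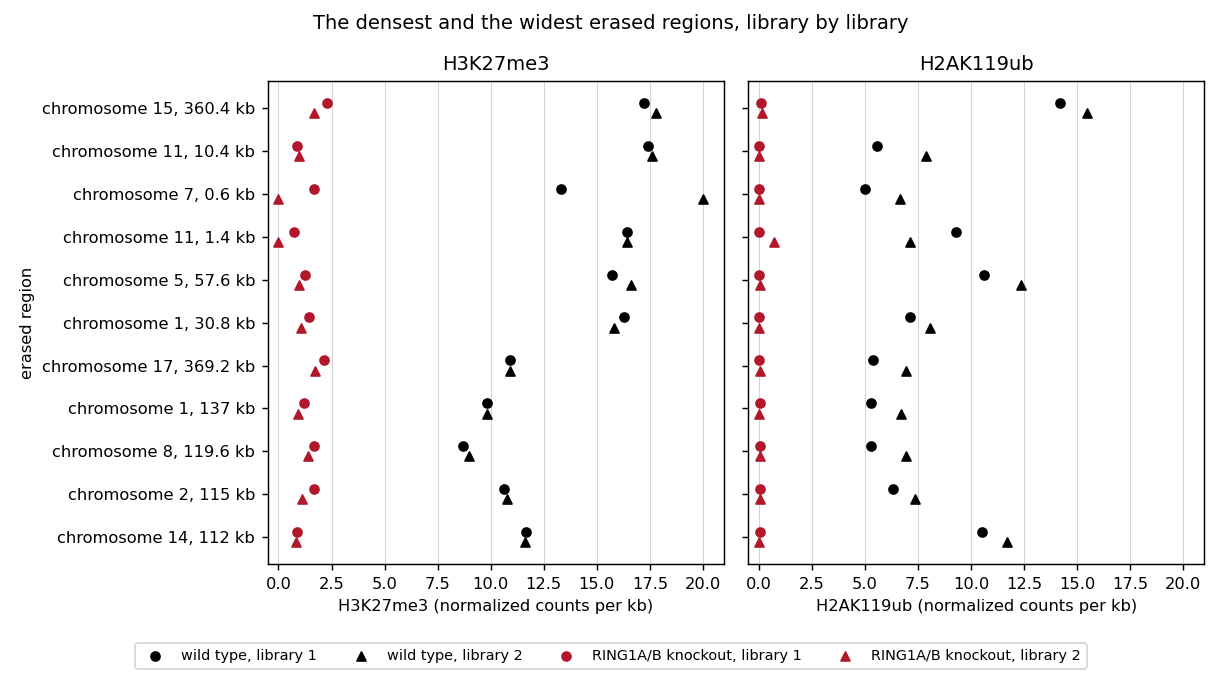
Rows are the 6 densest and the 6 widest erased regions (1 is both), labelled by chromosome and width. Circles and triangles give library 1 and library 2, black for wild type and red for the knockout, for H3K27me3 on the left and H2AK119ub on the right, in normalized counts per kb. In each row and mark both wild-type values lie above both knockout values, and H2AK119ub in wild type varies more between rows than the H2AK119ub left in the knockout.

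The most complete losses were listed for regions at or above the median width of the group, since narrower ones reach 0 on few counts. There the smallest share left was 0%, in chr7:27241601-27247400 (5.8 kb), with 44 and 59 normalized counts of H3K27me3 in wild type and 0 in both knockout libraries. Its H2AK119ub went from 79 and 67 to 0 and 0, so this region was listed at 0 for both marks. Next came chr6:73328601-73334600 (6.0 kb), with 62 and 65 in wild type against 0 and 1 in the knockout, and chr2:58763001-58766800 (3.8 kb), with 44 and 61 against 0 and 2. In the others of this rank, chr1:204072801-204077800, chr3:76696201-76705000 and chr22:42308401-42314600, between 2.08% and 2.29% was left. H2AK119ub in the knockout was 0 in both libraries in 5 of these 6 regions and 0 and 1 in the chromosome 22 region.

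H2AK119ub was not used in the choice. It fell in each of the 728 erased regions that could be tested (limma, Benjamini-Hochberg adjustment over all 23700 regions tested), and so it did in 100% of all tested regions to 3 digits (23699 regions), so the count does not set the erased regions apart. Adjusted p-values of the erased regions ran from 0.000192 to 0.0167. The median log2 change was -5.30 in the erased regions and -4.74 in all tested regions, but 354 of the 728 were at 0 in both knockout libraries, so the value depends on the pseudocount of 1. It was -6.06 with 0.5 and -3.33 with 5. The count depended on the scaling. With TMM factors 408 of 728 were called (46.9% of all tested regions), 375 with median-of-ratios factors (44%) and 358 after scaling to column totals (42.9%). Without wild-type library 1 or 2 it was 410 each (52.3% and 52.2%), and without either knockout library 727 (99.9%). Without the filter 1004 of 1030 were called (97.5%). A region had to reach a normalized count of 10 in at least 2 libraries, in practice through its wild-type values, and 302 erased regions did not pass. Those had a median width of 1.6 kb, and both knockout values lay below both wild-type values in 299 of them. Summed, they held 1865 and 2636 normalized counts in wild type against 22 and 29 in the knockout. Over all 1030 erased regions both knockout values lay below both wild-type values in 1027, against 99.3% of all regions.

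Summed over the erased regions, H2AK119ub was 68329 and 82704 normalized counts in wild type against 449 and 529 in the knockout, 0.648% of wild type (0.543% to 0.774% over the 4 pairs). In kept strong regions 0.829% was left (0.730% to 0.938%) and over all autosomal regions 1.10% (0.913% to 1.32%). The ranges of erased and kept regions overlap, but they come from the same 4 library pairs. Within each pair the share left was lower in erased than in kept regions. The knockout density itself was 0.0428 and 0.0504 per kb in erased regions, 0.0504 and 0.0590 in kept regions and 0.0374 and 0.0458 in all autosomal regions. On that scale the erased regions lay between the others. Both knockout libraries were at 0 in 611 erased regions (59.3%), against 37.1% of the wider kept regions and 54.4% of autosomal regions.

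Wild-type H2AK119ub overlapped between erased and kept strong regions. Its median density in the erased regions was 5.48 per kb in library 1 and 6.97 in library 2 (6.22 ± 1.06, SD, n = 2). In the kept regions it was 5.70 and 6.21 (5.96 ± 0.36, SD, n = 2). By these medians the erased regions were the lower set in library 1 and the higher set in library 2. The order in library 1 was not stable: the pooled density (summed counts over summed width) was 6.51 and 7.88 in erased against 6.30 and 6.90 in kept regions, and after TMM scaling of H3K27me3 the medians in library 1 were 5.00 and 4.93. Both sets lay above all autosomal regions, at 2.90 and 3.63. The ranges of single regions also coincide, with a 10th percentile of 3.75 and a 90th of 10.6 for erased and 3.58 and 12.2 for kept regions. No test was run on this difference, because the sets were chosen with results known and each genotype has 2 libraries.

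**Figure D4:**
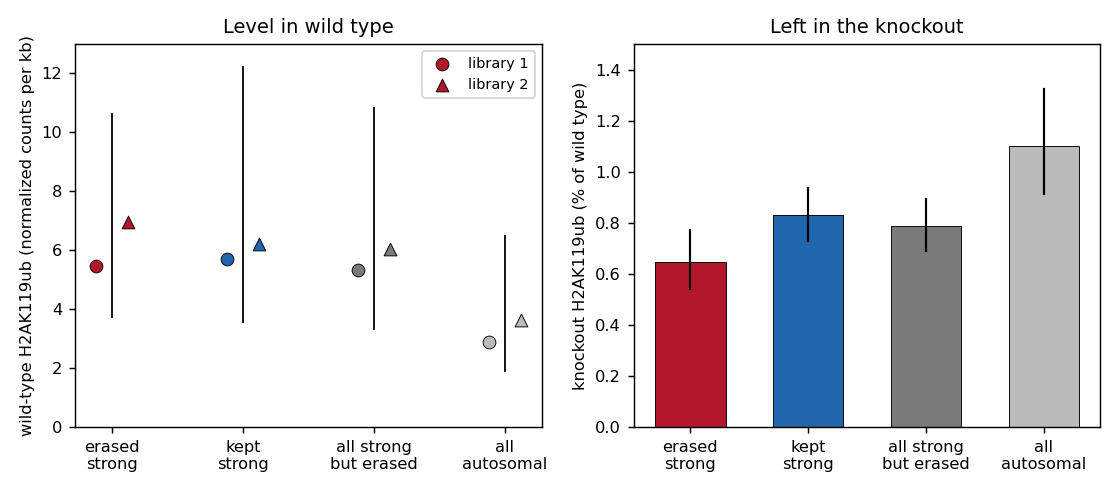
On the left, points give the median wild-type H2AK119ub density of each library in normalized counts per kb, and lines span the 10th to 90th percentile of regions (mean of libraries). On the right, bars give knockout H2AK119ub as a percentage of wild type and lines the range over the 4 library pairs. The ranges of erased and kept regions overlap in both panels, but within each library pair the share left was lower in erased regions. In wild type both sets lie above the set of all autosomal regions.

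Split into 5 equal bins by wild-type H2AK119ub density, the strong regions had the largest erased share in the second highest bin. The share was 19.5% in the lowest bin, then 22.2%, 27.5% and 33.0%, and 27.6% in the highest bin. The kept share was 21.8%, 27.6%, 24.8%, 22.5% and 30.5%. The order of the bins depended on the library used for ranking. With library 1 the erased share of the lowest bin was 24.7% and that of the highest 26.3%, and with library 2 these were 18.4% and 30.0%. Within width classes cut into 3 bins by the mean H2AK119ub density of both libraries, the lowest bin had the smallest erased share in each class. This split was not made for single libraries. From the lowest bin up, regions of 20 kb or more gave 15%, 22% and 22.4%, and regions of 5 to under 20 kb gave 14.1%, 27.6% and 23.7%. Within the erased regions, Spearman's rho between wild-type H2AK119ub and H3K27me3 densities was 0.278 (1030 regions, which share the libraries and the width in the divisor). The choice cuts the H3K27me3 density at 8, as it does in kept regions, where rho was 0.534 (1010 regions). The densities of the H2AK119ub libraries had a rho of 0.643 with each other over all erased regions and 0.825 over the 430 of 5 kb or more.

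The ratio of the marks is one of normalized counts from different antibodies, so it ranks regions and does not say which mark is more abundant. The wild-type ratio of H2AK119ub to H3K27me3 had a median of 0.666, with a 10th percentile of 0.406 and a 90th of 1.11 in erased regions. The same percentiles were 0.380 and 0.973 in kept regions and 0.450 and 1.24 in all autosomal regions. At one end, the ratio was above 1 in 147 regions (14.3%), against 9.11% of kept regions and 18.8% of all autosomal regions. The highest H2AK119ub density was in chr12:57608401-57610000 (1.6 kb), with 48 and 44 normalized counts of H2AK119ub and 13 and 18 of H3K27me3 in wild type, and 2 and 3 of H3K27me3 in the knockout. The region chr1:204072801-204077800 (5.0 kb) had 121 and 108 of H2AK119ub and 40 and 56 of H3K27me3, and in the knockout H2AK119ub was 0 and 0 and H3K27me3 was 0 and 2. In the first of these regions 16.1% of H3K27me3 was left and in the second 2.08%, while H2AK119ub was listed at 0 in the knockout in both.

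At the other end, some erased regions held almost no H2AK119ub in wild type. In chr3:6718001-6719200 (1.2 kb) it was 1 and 1 normalized counts in wild type against 1 and 0 in the knockout, with H3K27me3 of 8 and 14 against 2 and 1. The regions chr7:65064201-65065800, chr13:110067801-110069600 and chr2:163013201-163015200 had 2 to 5 normalized counts of H2AK119ub in wild type. All of these were 2 kb or less and too low in H2AK119ub to be tested. In the 257 erased regions with the least H2AK119ub (0.833 to 4.82 per kb, median width 2.4 kb) the pooled H3K27me3 density was 8.70 and 8.80 per kb in wild type against 1.40 and 0.985 in the knockout. In the 258 with the most (8.03 to 28.8 per kb, median width 4.2 kb) it was 11.6 and 11.8 against 1.39 and 1.05, so the wild-type level differed and the knockout level was close. These are values the choice used.

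The 4 largest log2 falls of H2AK119ub among the tested erased regions were in domains of 39.8 to 112 kb. A pair of these was listed at 0 in both knockout libraries, so their rank depends on the pseudocount. In chr12:54428001-54467800 (39.8 kb) it fell from 473 and 544 normalized counts to 0 in both libraries, and H3K27me3 was 526 and 588 against 56 and 47. In chr17:46663001-46721600 (58.6 kb) it fell from 815 and 852 to 1 and 2 (log2 change -8.41 ± 0.27, SE, adjusted p = 0.000245, limma), and H3K27me3 was 677 and 667 against 111 and 93. In chr6:106430601-106480800 (50.2 kb) H2AK119ub fell from 285 and 375 to 0 and 0, and H3K27me3 was 462 and 516 against 32 and 16. The remaining one was the chromosome 14 domain chr14:61932601-62044600, where it fell from 1177 and 1308 to 6 and 1 (log2 change -8.37 ± 0.74, SE, adjusted p = 0.00188, limma). Among the 728 tested regions, the smallest falls were in narrow regions with 1 count left in a knockout library, such as chr11:115035601-115040400 (4.8 kb), from 13 and 14 to 1 and 1 (log2 change -2.86 ± 0.12, SE, adjusted p = 0.000357, limma). Those of chr10:62167801-62171000, chr10:116389401-116393000 and chr9:37733801-37735600 ran from -3.08 to -2.99.

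Erased regions lay in surroundings that also had less H3K27me3 in the knockout. For the region next before an erased region in the table, the median H3K27me3 density was 6.54 per kb in wild type and 1.97 in the knockout, and for the region next after it 6.33 and 1.92. The knockout medians were higher at each further step, reaching 4.58 and 4.38 at 5 regions away, where the wild type had 5.93 and 5.97. Around kept regions the adjacent medians were 6.63 and 6.65 in wild type against 6.65 and 7.0 in the knockout. The wild-type medians next to erased and kept regions were thus close, and the knockout medians were far apart. In 75.1% and 74.2% of the regions adjacent to erased ones, both knockout values lay below both wild-type values, against 35.0% and 32.0% next to kept ones and 29.9% of all autosomal regions. These are values of the same H3K27me3 contrast and neighbours may be parts of 1 domain, so no test was made.

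**Figure D5:**
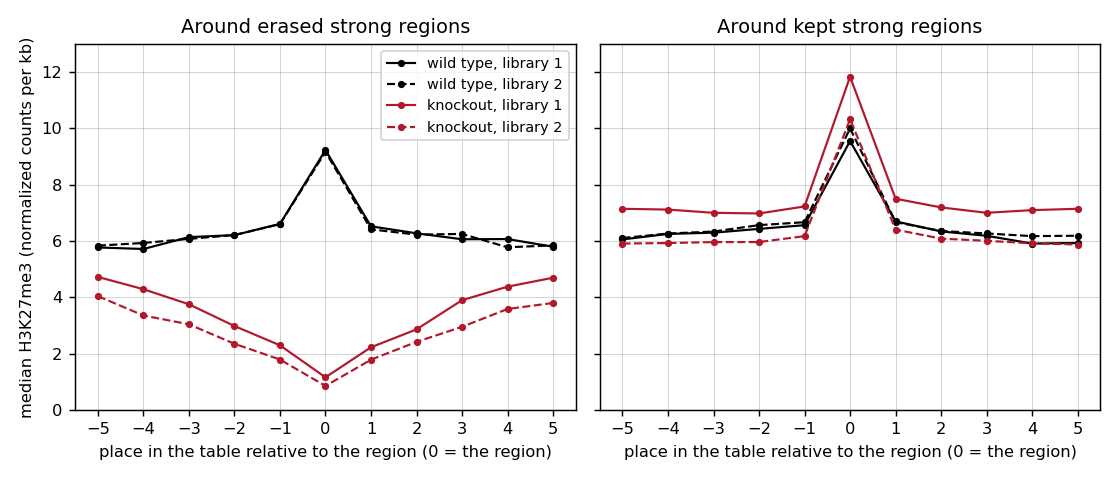
Lines give the median H3K27me3 density in normalized counts per kb for regions at a given place before or after an erased region (left) or a kept region (right), in each wild-type (black) and knockout (red) library. Around erased regions the knockout lines are lowest at the region itself and higher at each step to 5 places away, and they stay below wild type throughout. Around kept regions knockout library 1 lies above wild type at each place, at 11.8 against 9.55 and 10 at the region itself. Knockout library 2 runs close to wild type there.

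The adjacent regions were also sorted by their gap to the erased region. For neighbours up to 10 kb away (517) the median was 6.75 per kb in wild type and 1.68 in the knockout, for those over 10 to 50 kb away (798) 6.56 and 1.97, and for those over 50 kb away (744) 6.14 and 2.50. Leaving out neighbours that were erased themselves gave knockout medians of 1.86, 2.35 and 3.06. Neighbours of all autosomal regions had knockout medians of 6.94, 6.4 and 5.53 in the same gap classes, a baseline that also changes with the gap. Neighbours of kept regions had 7.36, 6.55 and 6.56. Of the neighbours within 10 kb, 72 (13.9%) were erased and 4 (0.774%) were kept. For all autosomal regions the corresponding shares were 2.47% and 3.21%, and for kept regions 0.595% and 19.3%. Erased regions stood somewhat farther from other regions. Their median gap to the nearest was 11.6 kb, against 9.2 kb for kept and 10 kb for all autosomal regions. No region lay within 50 kb of 19.7% of them, against 12.9% of kept and 9.22% of all autosomal regions.

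Runs of erased regions were short. Regions were counted as adjoining when they followed each other on the chromosome, at any distance. An erased region adjoined another one in 231 cases (22.4%), as 90 pairs, 13 runs of 3 and 3 runs of 4, and 799 stood alone. This share depends on how many regions the limits admit. The run on chromosome 1, chr1:202289401-202688000, covered 71.6 kb of a span of 398.6 kb. It held 788 and 873 normalized counts of H3K27me3 in wild type against 51 and 33 in the knockout. Most of this was in chr1:202611601-202635600 (322 and 345 against 11 and 10) and chr1:202644201-202688000 (434 and 495 against 33 and 20). The region before the run still had 5.55 and 4.76 per kb in the knockout, and the narrow region after it (1.2 kb) 9.17 and 7.50, against 4.17 and 11.7 in wild type.

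On chromosome 13, 4 erased regions of 25 to 48.2 kb followed each other in chr13:100304401-100467600. Their H3K27me3 was 1233 and 1195 normalized counts in wild type against 138 and 101 in the knockout over 124.6 kb, and H2AK119ub fell in all 4 (adjusted p from 0.000217 to 0.00208, limma). The flanking regions were also low in the knockout, at 1.84 and 0.759 per kb before and 2.47 and 1.67 after, against 5.57 and 6.33 and 9.01 and 11.4 in wild type. The run on chromosome 19, chr19:23505801-24156400, was sparser. Its 4 regions were 2.2 to 6.2 kb wide and spread over 650.6 kb, with 191 and 211 of H3K27me3 in wild type against 25 and 19 in the knockout, at a wild-type H2AK119ub density of 2.07 and 3.54 per kb.

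Erased regions occurred on all 22 autosomes, in shares of the strong regions from 7.09% to 45.7%. The share was highest on chromosome 13, with 42 of 92 strong regions, followed by chromosome 4 with 57 of 150 (38%) and chromosome 3 with 96 of 259 (37.1%). It was lowest on chromosome 19, with 10 of 141, then chromosome 16 with 13 of 106 (12.3%) and chromosome 17 with 24 of 169 (14.2%). The kept share was highest on chromosome 19 (53.9%) and second highest on chromosome 16 (42.5%). On chromosomes 22 and 15 the erased regions had the most H2AK119ub in wild type. The medians were 10 and 10.1 per kb on chromosome 22 (14 erased regions) and 9.43 and 10 on chromosome 15 (35 erased regions), against 5.48 and 6.97 over all erased regions. Other strong regions of the same chromosomes were not set beside them, so these levels may not be particular to erased regions. A segment of chromosome 15 is duplicated in HAP1, and no correction of the counts for DNA copy number is stated. Its part in the chromosome 15 level was not tested. Regions of a chromosome are not replicates, so the shares and levels by chromosome were not tested.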

How the data were processed

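The deposited table gives the authors' normalized count of each library in each region. These are whole numbers treated as a score, already normalized per the file headers, with no method named there. Bowtie2, deepTools, bedtools, Picard and SAMtools and the build hg19 are listed in the submitters' processing notes, without the way regions were called. The deposited log2 values, log2 fold changes and p-values of the authors were not used. Starts and ends in the file count from 0, so 1 was added to both. Densities are normalized counts per kb. H2AK119ub was tested on log2(normalized count + 1) by limma (version 3.58.1, R 4.3.3), with its trend option and adjusted p-values (Benjamini-Hochberg) called at 0.05, over regions with at least 10 in 2 of the 4 libraries and a sum of at least 15. No scaling was added. Alternatives changed the pseudocount, filter, scaling, replicate block, libraries and limits. Pearson's r of H2AK119ub replicate deviations between the genotypes was -0.000149 over 23700 regions. Of these, 10089 were at 0 in both knockout libraries, so r could show little about pairing of replicate numbers. Pairing of the H3K27me3 libraries was not checked. Named regions were the 6 densest, the 6 widest, the 6 with the smallest H3K27me3 share left at or above the median width, the extremes of H2AK119ub density and of its change (4 each), those nearest the limits (2 each side) and the longest runs. The members, comparison sets and tests were chosen with earlier results of these data known. Gene lists and base composition were not applied, as no hg19 annotation or genome was used here. Figures were drawn with matplotlib 3.10.9.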

Additional observations from a re-analysis of the deposited data

How the results depend on the processing

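The number of erased regions depended on the limits and the scaling. It was 3105 with a wild-type limit of 6, 280 with 10, 466 with a knockout limit of 1, 481 when each library had to meet its limit, 2518 after TMM factors and 2708 after scaling to column totals. All 1030 regions were among those 2518 and 2708. Adjoining erased regions numbered 1617, 22, 58, 65, 1021 and 1165 under the same settings. Without 1 of the H3K27me3 libraries there were 944 to 1286 erased regions and 183 to 315 adjoining ones. The median width was 3.4 kb with a knockout limit of 1, 7.8 kb when each library had to meet its limit, and 3 to 3.6 kb without a library. The median wild-type H2AK119ub density was 7.45 per kb with a wild-type limit of 10, and 5.27 to 6.97 under every other setting run. After TMM factors it was 5.00 and 6.19 in erased and 4.93 and 5.54 in kept regions for libraries 1 and 2, so the order of the sets in library 1 turned. The H2AK119ub left ranged from 0.581% to 0.738% under all settings run and stayed within its spread. Erased regions called lower in H2AK119ub numbered 408 (TMM factors), 375 (median-of-ratios factors) and 358 (column totals), against 46.9%, 44% and 42.9% of all tested regions (11113, 10425 and 10156). Such scaling removes most of the loss by construction. Without 1 library 410 to 727 were called, and 12377 to 23686 of all regions. The low ends came from leaving out either wild-type library, where the prior degrees of freedom fell to 0.0682 and 0.0687 from 1.10, and the lone sample is assumed to vary like the pair of the other genotype. The cause was not tested. The fit with the replicate block called 728 erased regions and 23700 of all regions. Depth is unknown, and regions under 2 kb rest on few counts.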

Other observations

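Chromosome X was outside the choice of erased regions, but 55 of its 1525 regions met both limits, which were 43.3% of its 127 strong regions, and 18 (14.2%) met the limits for kept regions. These 55 regions had a median width of 2.4 kb. Their summed H3K27me3 was 3149 and 3155 normalized counts in wild type against 350 and 284 in the knockout. H2AK119ub was 1968 and 2364 in wild type against 15 and 11 in the knockout, 0.600% of wild type. The widest, chrX:24385201-24417000 (31.8 kb), had 294 and 277 normalized counts of H3K27me3 in wild type against 25 and 23 in the knockout, and its H2AK119ub was 200 and 210 against 1 and 0. The next, chrX:72662401-72692400 (30 kb), had 273 and 274 of H3K27me3 in wild type against 49 and 33 in the knockout. Both named regions were chosen after their values were seen.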
